A study of Mus musculus with 5 samples.

Results

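The nuclear genes for subunits of the mitochondrial respiratory chain were examined in long-term haematopoietic stem cells (LT-HSCs) of mice that had lost Lrf, the zinc finger transcription factor encoded by Zbtb7a. Members were taken by name alone: every gene with a symbol of the Nduf, Sdh, Uqcr, Cox4 to Cox8 or Atp5 families that had a probe set annotated to it and to no other gene. This gave 80 of 18193 genes on the array, of which 34 were counted under complex I, 4 under complex II, 8 under complex III, 17 under complex IV and 17 under complex V. They were covered by 163 of 45037 probe sets, and each gene was represented by its brightest probe set over the 5 arrays. Ndufs6, Ndufa11 and Cox7b had no probe set of their own under this rule and were not analysed here, nor were the subunits encoded by mitochondrial DNA, 0 of 13 of which had a single-gene probe set.

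The knockout arrays (n = 3) came from C57BL/6 mice with both Zbtb7a alleles floxed, and the control arrays (n = 2) from C57BL/6 mice with 1 floxed and 1 wild-type allele. All mice were 4 weeks old, all carried Mx1-Cre, and all received 2 injections of 250 µg pIpC, a double-stranded RNA analogue that drives the interferon-responsive Mx1 promoter. The cells were taken 9 days after injections began and sorted by flow cytometry from the LSK population (no lineage markers, Sca-1 and Kit present), keeping those with CD150 that lacked CD48, Flt3 and IL7Ra. The comparison addresses which LT-HSC transcripts depend on Lrf. Because controls also carried Cre and would lose 1 allele on induction, the comparison does not measure effects of Cre, of pIpC or of losing a single allele that both groups had alike. The levels of genes that respond to interferon were not alike in all arrays. Of 9 interferon response genes measured, 9 had a knockout minus control difference above 0 (median 1.49 on the log2 scale) and 7 had every knockout above both controls, against 2.68% of the genes tested. In limma 0 of the 9 passed, and 0 had an unadjusted p under 0.05. Mx1-Cre acts in many blood and stromal cell types, not in stem cells alone. The label of the third knockout array lists 2 animals where the other labels list 1, so pooling of mice on an array is possible, and p-values measure the spread between these arrays.

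Complex I takes electrons from NADH and complex II takes them from succinate. Both complexes pass them through coenzyme Q to complex III, then through cytochrome c to complex IV, which reduces oxygen. Complexes I, III and IV pump protons out of the mitochondrial matrix, and complex V, the ATP synthase, lets them back in to make ATP. Most subunits are encoded in the nucleus and imported. Quiescent LT-HSCs are known to rely heavily on glycolysis and to raise mitochondrial respiration when they leave quiescence and differentiate.

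Values are log2 intensities, and a difference is always knockout minus control on this scale. Values of several arrays stand in the order of their replicate numbers. The arrays had median intensities of 6.38 to 6.40. Knockout replicate 2 stood apart, with correlations of 0.945 to 0.970 with the other arrays over 45037 probe sets, against 0.977 to 0.990 among the others. For the targeted gene Zbtb7a, the 3 probe sets gave differences of 0.41, -0.36 and -0.05, with exact two-sided permutation p-values of 0.3, 0.4 and 0.8 (smallest possible 0.1). Where these probes lie relative to the deleted part is not known here, so they check nothing about the deletion. Of 12 stem cell genes, 10 were measured. Kit, the stem cell factor receptor, read 11.34, 9.60 and 11.48 in knockouts, against 11.12 and 11.82 in controls. Meis1, a stem cell transcription factor, read 11.45, 8.67 and 11.66 in knockouts, against 11.14 and 12.12 in controls. All 10 measured stem cell genes, Kit and Meis1 among them, were lowest in knockout replicate 2. There the list had a median level of 7.99, against 8.40 for all genes tested. Kit and Meis1 were bright in the other arrays. Transcripts of other cell types were bright too, among them the neutrophil granule gene Ngp at 12.80, 15.01 and 14.11 in knockouts and 15.04 and 14.18 in controls.

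No respiratory chain gene passed the test between knockout and control. In limma, 0 of 77 members tested had an adjusted p under 0.05, as did 0.0% of the 27022 probe sets tested (adjusted p = 1 for all). At an unadjusted limma p under 0.05 there were 0 of 77 members, against 0.96% of 12813 genes and 306 probe sets. The other 3 members, Ndufb4, Cox7a1 and Cox7b2, lay below the intensity filter of 5.77. Over all 80 members, differences ran from -0.24 to 0.39 with a median of -0.01, 35 above 0 and 45 below. Over all genes tested the median difference was -0.03, with 43.7% above 0. The median absolute difference was 0.08 for the members and 0.14 for all genes tested. The interval of the fit (95%) lay within 1 log2 unit of 0 for 67 of 77 members, but within 0.5 for 22 of them, so small differences were not resolved by 5 arrays.

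**Figure D1:**
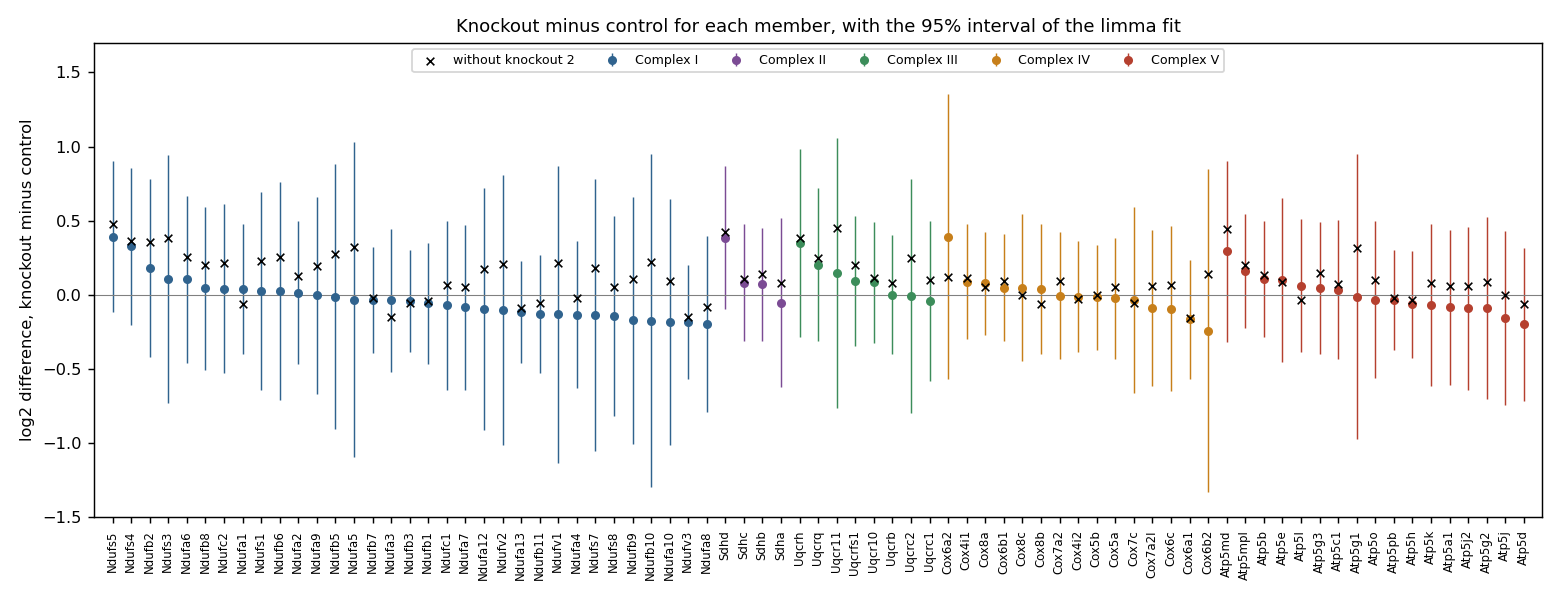
Log2 difference, knockout minus control, for each of the 77 members tested (vertical axis), ordered within complexes I to V; points are limma estimates, bars their 95% intervals, and crosses the difference without knockout replicate 2. Every interval includes 0, and 59 of 77 crosses lie above 0.

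By complex, the median difference was -0.04 for complex I (12 of 34 members above 0), 0.08 for complex II (3 of 4), 0.09 for complex III (6 of 8), -0.01 for complex IV (7 of 17) and -0.03 for complex V (7 of 17). Of all genes tested, 43.7% lay above 0. In 3 of 77 members every knockout array lay above both controls, against 2.68% of the genes tested. In 1 of 77 every knockout array lay below both controls, against 4.5% of the genes tested. The 3 higher members were Ndufs5, Sdhd and Atp5mpl, and the lower one was Ndufa13. Counts this near the background shares single out nothing about the members.

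The DNA just upstream of 3 of these 4 genes is shown because they are the members whose groups were apart, and that of Ndufv1 because it was among the members that knockout replicate 2 read far below the other arrays. Each sequence is the 150 bases that end at the RefSeq transcription start site (GRCm38.p6), all 4 on the minus strand, 5′ to 3′. Capitals mark matches to the NRF1 motif (GCGCANGCG) or the ETS motif (CCGGAAG) on either strand, sites through which the factors NRF1 and GABP are known to act on many respiratory genes. Sdhd lies at chr9:50603850-50603999, Ndufs5 at chr4:123718187-123718336, Ndufa13 at chr8:69902021-69902170 and Ndufv1 at chr19:4012756-4012905.
Sdhd: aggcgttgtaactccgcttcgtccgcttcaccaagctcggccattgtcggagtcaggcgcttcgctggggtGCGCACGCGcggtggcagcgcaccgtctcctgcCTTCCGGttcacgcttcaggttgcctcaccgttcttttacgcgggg
Ndufs5: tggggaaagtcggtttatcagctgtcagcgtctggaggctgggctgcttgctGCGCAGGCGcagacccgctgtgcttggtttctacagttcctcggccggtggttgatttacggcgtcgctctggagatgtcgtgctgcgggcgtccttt
Ndufa13: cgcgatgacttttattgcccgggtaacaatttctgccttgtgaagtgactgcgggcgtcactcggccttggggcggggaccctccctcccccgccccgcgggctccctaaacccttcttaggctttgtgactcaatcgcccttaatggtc
Ndufv1: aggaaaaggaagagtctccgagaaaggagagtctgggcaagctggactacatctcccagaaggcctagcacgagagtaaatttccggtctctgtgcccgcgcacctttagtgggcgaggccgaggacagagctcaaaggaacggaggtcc
The Sdhd stretch holds both motifs, the Ndufs5 stretch holds an NRF1 match, and those of Ndufa13 and Ndufv1 hold neither in these 150 bases.

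Over the whole window of 300 bases (250 before the start site and 50 after), the set of RefSeq promoters used here held 66 of the 80 members. The other members, Atp5mpl among them, had no entry in that set and were not searched. NRF1 matches were found in 18 of these 66 (27.3%), against 11.5% of 14368 genes measured on the array, and ETS matches in 17 (25.8%), against 15.0%. The YY1 motif (AAGATGGCG), known from many ribosomal and mitochondrial genes, was found in 6 (9.09%), against 2.54%. At least 1 of the 3 motifs was present in 34 members (51.5%), against 25.5% of measured genes, with both strands searched and overlaps between motifs allowed. By complex this was 14 of 31 in complex I, 3 of 3 in complex II, 3 of 5 in complex III, 3 of 12 in complex IV and 11 of 15 in complex V. The matches describe the promoters of this gene group and say nothing of binding in these cells.

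Complex I is built of a peripheral arm, which holds the flavin and iron-sulphur clusters, and a membrane arm, which holds the proton channels. Ndufs5, an accessory subunit on the intermembrane-space side of the membrane arm, read 7.75, 7.60 and 7.95 in knockouts, against 7.20 and 7.55 in controls. All 3 knockouts lay above both controls, the nearest pair by a narrow margin. The means were 7.77 ± 0.18 (SD, n = 3) in knockouts and 7.38 ± 0.24 (SD, n = 2) in controls, and the difference was 0.39 (SE 0.19, limma adjusted p = 1), or 0.22 without control replicate 1. Ndufs4, an accessory subunit of the peripheral arm whose loss is used in mice as a model of Leigh syndrome, read 9.95, 9.79 and 9.86 in knockouts, against 9.29 and 9.79 in controls. Control replicate 2 reached the level of the knockouts, and the difference of 0.33 (SE 0.20) was 0.08 without control replicate 1. Its other 3 probe sets differed by -0.18, 0.01 and 0.21.

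Ndufa13, also known as Grim-19, an accessory subunit of the membrane arm, read 12.72, 12.64 and 12.73 in knockouts, against 12.79 and 12.83 in controls. The groups were apart, but the difference was only -0.11 (SE 0.13). Ndufv3, a small subunit beside the NADH-binding site, read 11.09, 11.06 and 11.23 in knockouts, against 11.39 and 11.23 in controls, a difference of -0.18 (SE 0.15) with knockout replicate 3 at the level of control replicate 2. Ndufa8, an accessory subunit facing the intermembrane space, had the lowest difference of complex I at -0.20 (SE 0.23). Its 3 knockouts, at 11.35, 10.91 and 11.19, spanned the lower control at 11.13 and stayed under the other at 11.57. Ndufa12, an accessory subunit of the peripheral arm, differed by -0.09 on its brightest probe set and by 0.84 on its dimmest, where knockout replicate 2 read 7.90 and the other arrays 5.74 to 6.23. Ndufa4, counted here by its name though the protein is now placed in complex IV, differed by -0.13 (SE 0.19).

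Complex II is also an enzyme of the TCA cycle, with 2 catalytic subunits and 2 membrane anchors. Sdhd, the small anchor subunit, read 10.51, 10.27 and 10.23 in knockouts, against 9.79 and 10.11 in controls. All 3 knockouts were above both controls, with means of 10.34 ± 0.15 (SD, n = 3) in knockouts and 9.95 ± 0.23 (SD, n = 2) in controls. The difference of 0.39 (SE 0.18) had a 95% interval of -0.10 to 0.87 and was 0.23 without control replicate 1. It ranked first among the members and 293 of 12813 genes by limma p, with an adjusted p of 1. Its second probe set read 8.61, 7.85 and 8.48 in knockouts, against 8.14 and 8.39 in controls, a difference of 0.05 with overlapping groups. The other anchor Sdhc differed by 0.08 (SE 0.15), the iron-sulphur subunit Sdhb by 0.07 (SE 0.15) and the flavoprotein Sdha by -0.05 (SE 0.22).

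In complex III, which moves electrons from coenzyme Q to cytochrome c, the 3 largest positive differences belonged to small subunits. Uqcrh, the hinge protein at the cytochrome c docking site, read 9.78, 9.70 and 9.84 in knockouts, against 9.08 and 9.76 in controls. Control replicate 1 lay below all other arrays and control replicate 2 among the knockouts, so the difference of 0.35 (SE 0.24) was 0.01 without control replicate 1 and 0.69 without control replicate 2. Uqcrq, a small subunit bound near cytochrome b, read 9.81, 9.69 and 9.84 in knockouts, against 9.34 and 9.82 in controls, the same pattern with a difference of 0.20 (SE 0.20) that was 0.44 without control replicate 2 and -0.03 without control replicate 1. Of its dimmer probe sets that passed the filter, one differed by 0.12 and the other by -0.22. The Rieske iron-sulphur protein Uqcrfs1 differed by 0.09 (SE 0.17), Uqcr10 by 0.08 (SE 0.15), and the core proteins Uqcrc1 and Uqcrc2 by -0.04 and -0.01.

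**Figure D2:**
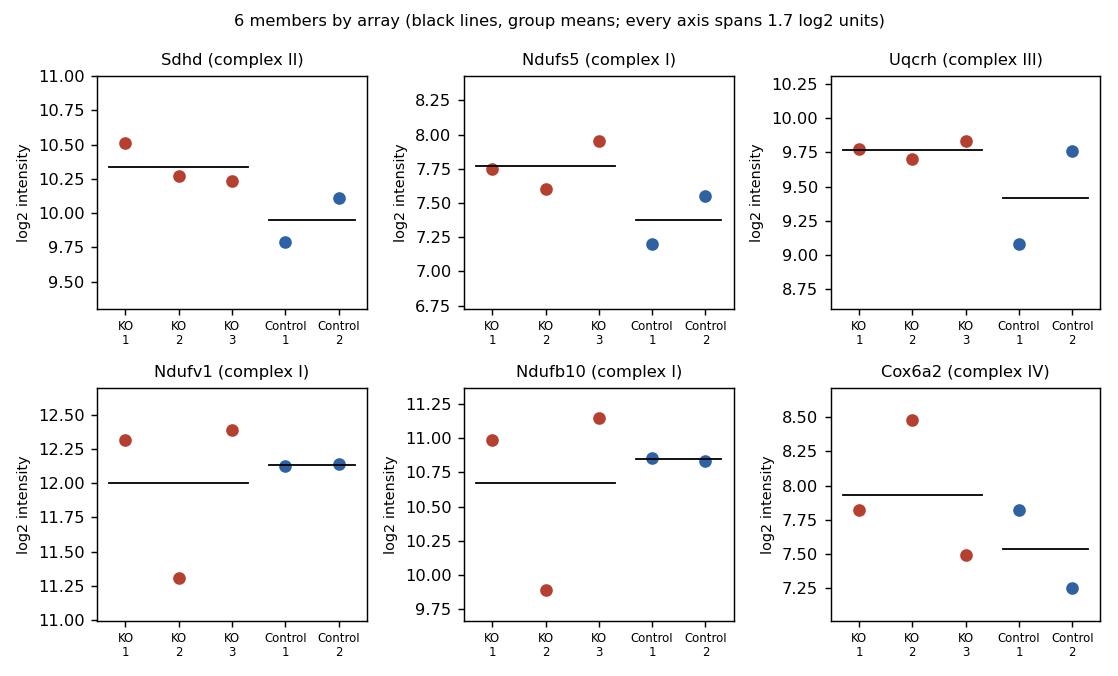
Log2 intensity of 6 members in the 3 knockout (KO, red, left) and 2 control arrays (blue, right) on axes of equal span; black lines are group means. In Uqcrh control replicate 1 lies alone at 9.08, in Ndufv1 and Ndufb10 knockout replicate 2 lies alone at 11.30 and 9.89, and in Cox6a2 it is the highest array at 8.48.

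Complex IV has subunits with tissue isoforms. The general isoforms Cox4i1, Cox6b1 and Cox8a differed by 0.09, 0.05 and 0.08, and Cox6a1 by -0.16 (SE 0.15). Cox7a2 read 12.72 to 13.04 in knockouts, against 12.90 and 12.92 in controls. Cox6a1 read 13.52, 13.47 and 13.49 in knockouts, against 13.79 and 13.52 in controls, with control replicate 1 alone above the rest. The tissue isoforms other than Cox8c were dim or irregular. Cox4i2, known from lung and from hypoxia, read 6.39 to 6.59 in knockouts, against 6.49 and 6.54 in controls. Cox7a1, of heart and muscle, read 4.35 to 4.48 in knockouts, against 4.27 and 4.37 in controls, under the filter. Cox8b, also of heart and muscle, differed by 0.04, and the testis isoform Cox8c by 0.05. Cox8c read 8.26 to 8.55 in knockouts, against 8.57 and 8.24 in controls. Cox7a2l, which helps complexes III and IV assemble into supercomplexes, differed by -0.09 (SE 0.20).

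Both extremes of complex IV were tissue isoforms that varied from array to array. Cox6a2, the heart and muscle isoform, read 7.82, 8.48 and 7.49 in knockouts, against 7.82 and 7.25 in controls, a difference of 0.39 (SE 0.37). It was 0.12 without knockout replicate 2, 0.11 without control replicate 2 and 0.68 without control replicate 1. Cox6b2, the testis isoform, read 8.17, 6.97 and 8.06 in knockouts, against 7.93 and 8.01 in controls. Its difference of -0.24 (SE 0.41), the lowest of all members, was 0.14 without knockout replicate 2.

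In complex V, the ATP synthase, the 2 largest positive differences belonged to small subunits of the membrane part. Atp5mpl, a small membrane subunit, read 11.00, 10.77 and 10.80 in knockouts, against 10.69 and 10.71 in controls, with all knockouts above both controls and a difference of 0.16 (SE 0.15). Atp5md, also known as DAPIT, read 10.71, 10.26 and 10.72 in knockouts, against 10.07 and 10.46 in controls. The difference was 0.29 (SE 0.23), and knockout replicate 2 lay between the controls. It was 0.10 without control replicate 1 and 0.49 without control replicate 2. The catalytic beta subunit Atp5b differed by 0.11 (SE 0.15). The delta subunit Atp5d, part of the central stalk, read 12.61, 12.12 and 12.46 in knockouts, against 12.62 and 12.58 in controls, a difference of -0.20 (SE 0.20) that was -0.06 without knockout replicate 2. Atp5g1, Atp5g2 and Atp5g3, which encode the same mature c subunit of the rotor ring, differed by -0.01, -0.09 and 0.05.

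Knockout replicate 2 was below every other array in 51 of 77 members (66.2%), against 40.5% of the genes tested. It was at least 0.5 below every other array in 10 of 77 (13.0%), against 15.1%. Control replicate 1 was the lowest array in 13 members, knockout replicate 3 and control replicate 2 in 6 each and knockout replicate 1 in 1. Over the genes tested these arrays, in the same order, were lowest in 13.8%, 14.6%, 15.0% and 15.9%. The highest array was knockout replicate 1 in 27 members and knockout replicate 3 in 24. It was control replicate 2 in 13, control replicate 1 in 7 and knockout replicate 2 in 6. No share over all genes was taken for the highest array. Set against the mean of the other 4 arrays, the median member was -0.24 in knockout replicate 2, and the median gene tested -0.07.

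The complexes differed in how low knockout replicate 2 was. Its median difference from the other arrays was -0.38 in complex I, -0.08 in complex II, -0.21 in complex III, -0.05 in complex IV and -0.23 in complex V. It was the lowest array in 26 of 33 complex I members tested, 2 of 4 in complex II, 5 of 8 in complex III, 7 of 15 in complex IV and 11 of 17 in complex V. Complex I held 8 of the 10 members at least 0.5 below every other array. Within complex I, the subunits of the peripheral arm had a median of -0.53 (lowest array in 13 of 14) and those of the membrane arm -0.35 (12 of 18). The 6 core subunits measured, conserved from bacteria, had a median of -0.72 and were all lowest there. These subdivisions were drawn after the values had been seen, and no test was made of them.

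**Figure D3:**
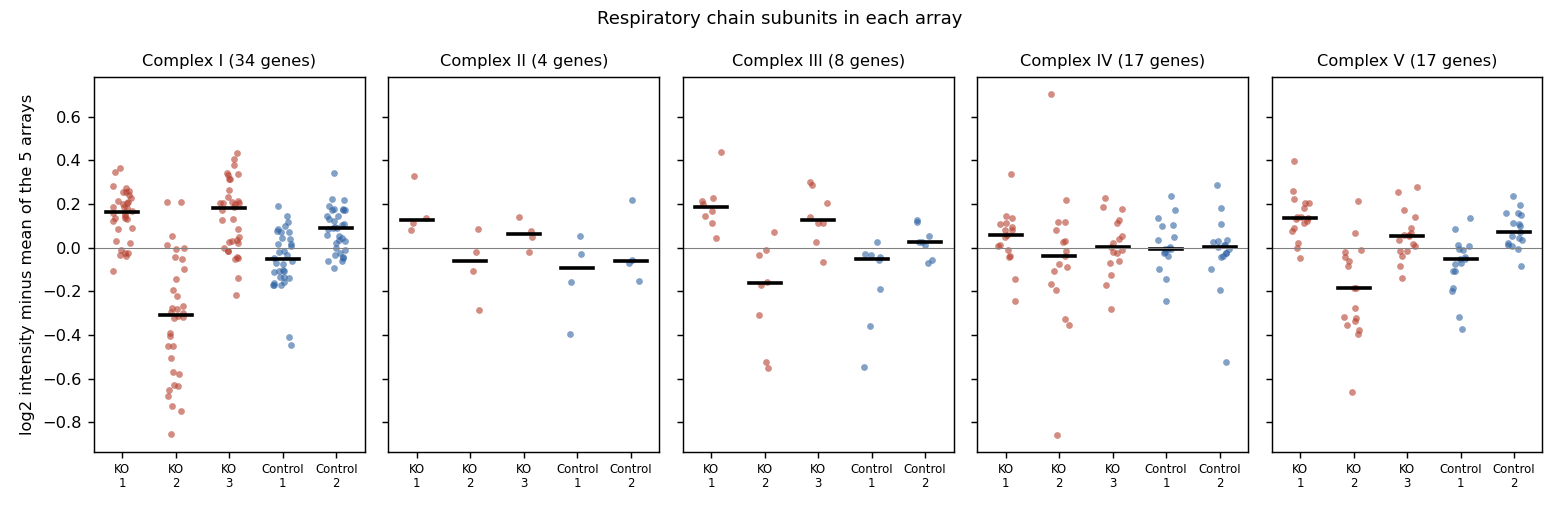
Log2 intensity minus the gene's mean over the 5 arrays (vertical axis) for all 80 members, by complex and array, knockout (KO, red) left of control (blue); points are genes and black lines medians. Knockout replicate 2 has its lowest median in complex I, where 26 of 33 members tested are below every other array.

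The core subunits and others with the widest gap were chosen for that gap and are given as a description. Ndufv1, which binds NADH and the flavin, read 12.31, 11.30 and 12.39 in knockouts, against 12.12 and 12.14 in controls. Knockout replicate 2 was 0.94 below the mean of the others there, and the gene's other probe sets gave -0.83 and -0.33. Ndufb10, an accessory subunit of the membrane arm, read 10.98, 9.89 and 11.15 in knockouts, against 10.86 and 10.84 in controls, which put replicate 2 at -1.07. Ndufs7, which carries the last iron-sulphur cluster before coenzyme Q, read 12.12, 11.24 and 12.23 in knockouts, against 11.94 and 12.06 in controls, and was at -0.85. In each of these genes the other 2 knockouts lay above both controls, so the group difference came out near 0 with a wide interval. Ndufv2, an iron-sulphur subunit beside Ndufv1, was at -0.82, and Ndufa5, an accessory subunit of the peripheral arm, at -0.91. Outside complex I, Atp5g1 read 10.12, 9.06 and 9.98 in knockouts, against 9.73 and 9.73 in controls. A few members were instead highest in knockout replicate 2, among them the small membrane-arm subunits Ndufa1 and Ndufa3, each 0.26 above the mean of the others, and Atp5l, a membrane subunit of the ATP synthase, at 0.27.

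Knockout replicate 2 differed from the rest in many other transcripts. Its 10 measured stem cell genes had a median of -2.36 against the control mean, where knockout replicates 1 and 3 had -0.18 and 0.20. The 14 immediate early genes, such as Fos and Dusp1, had a median of 3.36 in knockout replicate 2, against 0.02 and -0.16 in replicates 1 and 3. Fos read 7.13, 14.04 and 6.96 in knockouts, against 7.23 and 6.99 in controls. Granulocyte-monocyte progenitor, mast cell and lymphoid lists had medians of 1.34, 2.06 and 1.69 in replicate 2. Neutrophil, T and NK cell and erythroid lists had 1.00, 1.11 and 0.55 there. The erythroid list did not set replicate 2 apart, with 0.52 in knockout replicate 3 and 0.82 and -0.82 in the controls. For the neutrophil list the controls were at 0.62 and -0.62. Macrophage and megakaryocyte lists were below the control mean in replicate 2, with -2.18 and -1.23, though the macrophage list was also at -1.84 in knockout replicate 1. Of the 3 genes whose proteins the sort excluded, 2 were higher in knockouts on average and 1 lower. Il7r read 9.35, 10.50 and 7.44 in knockouts, against 6.21 and 7.30 in controls. Cd48 read 8.42, 9.97 and 8.49 in knockouts, against 7.87 and 8.59 in controls. Flt3 read 8.92, 8.56 and 8.25 in knockouts, against 8.41 and 9.50 in controls. Knockout replicate 2 was the highest array for Il7r and Cd48 but not for Flt3. For Actb, the 3′ probe set exceeded the 5′ one by 4.98, 3.85 and 5.21 in knockouts, against 5.05 and 4.90 in controls (exact two-sided permutation p = 0.9). For Gapdh the same measure was 5.06, 4.67 and 5.17 in knockouts, against 5.16 and 5.06 in controls (exact two-sided permutation p = 0.9), a smaller gap in knockout replicate 2. In bulk samples, fewer cells of a type and less RNA per cell cannot be told apart, and what part cell content, cell state or RNA quality had in the low respiratory chain values was not tested.

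Without knockout replicate 2 the members leaned upward, by small amounts. The median difference of the 80 members was then 0.10, and that of all genes tested 0.00. It was 0.17 in complex I, 0.12 in complex II, 0.22 in complex III, 0.05 in complex IV and 0.08 in complex V. Of the members tested, 59 of 77 (76.6%) lay above 0, against 50.7% of the genes tested. Both remaining knockouts lay above both controls in 33 of 77 members (42.9%), against 13.9% of the genes tested, and below both in 1, against 13.5%. The 33 comprised 18 of 33 in complex I, 2 of 4 in complex II, 5 of 8 in complex III, 4 of 15 in complex IV and 4 of 17 in complex V. With these 4 arrays limma still called 0 members.

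Over all members this lean was the size of the gap between the controls, though it compares group means and the gap lies between single arrays. Control replicate 2 exceeded control replicate 1 by a median of 0.10, with a median absolute gap of 0.14. Over all genes tested these were 0.08 and 0.30. Relative to the control mean, the median member was at 0.14 in knockout replicate 1 and 0.09 in replicate 3. It was at -0.05 and 0.05 in the controls. By complex, the median gap between the controls was 0.16 in complex I, 0.15 in complex II, 0.08 in complex III, 0.01 in complex IV and 0.14 in complex V, so the lean exceeded it in complexes III and IV and was near or below it in the others. The 2 knockouts concerned also differed from the controls in other lists: interferon response genes had medians of 3.17 in replicate 1 and 0.43 in replicate 3 relative to the control mean, macrophage genes -1.84 and -0.72, and neutrophil genes -1.88 and -0.78. The part of these in the members' values was not tested. In absolute terms, the macrophage list (14 of 14 measured) had median levels of 7.94, 7.10 and 9.18 in knockouts, against 10.35 and 9.51 in controls. The neutrophil list (9 of 10 measured) had 10.84, 14.42 and 12.66 in knockouts, against 14.23 and 13.03 in controls.

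The rest of the mitochondrial gene programme was set beside the members. Among 44 assembly factors of the complexes, 0 passed the test and the median difference was -0.01. Sdhaf2, which helps insert the flavin into Sdha, differed by 0.21 (SE 0.14) with all knockouts above both controls, and the copper chaperone Sco1 differed by -0.28 (SE 0.21). Among 16 genes of the TCA cycle and pyruvate dehydrogenase, which feed the chain, 0 passed, with a median of -0.02. Suclg2, a subunit of succinyl-CoA ligase, read 11.37, 9.75 and 11.42 in knockouts, against 11.01 and 11.89 in controls. For the 9 genes of coenzyme Q synthesis the median was -0.14, with 0 passing, and Coq8a read 8.43, 7.13 and 8.50 in knockouts, against 8.43 and 8.66 in controls. Both genes were lowest in knockout replicate 2. The 17 regulators of mitochondrial biogenesis had a median of -0.02 with 0 passing, Nrf1, which encodes the factor of the motif above, differing by 0.16 (SE 0.17) and Yy1 by 0.06 (SE 0.13). The 7 carriers and porins had a median of 0.04, again with 0 passing. Among them Slc25a4, an ADP and ATP exchanger of the inner membrane, read 12.38, 10.96 and 12.28 in knockouts, against 11.17 and 12.06 in controls.

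Knockout replicate 2 was lower than the other arrays in most of these lists. Its median difference from the mean of the other arrays was -0.42 for assembly factors, -0.60 for the TCA cycle, -0.81 for coenzyme Q synthesis and -0.65 for the biogenesis regulators. It was -0.67 for 76 mitochondrial ribosomal proteins and -0.48 for 46 cytosolic ribosomal proteins. All 9 coenzyme Q genes and all 7 carriers had their lowest value in that array. For 19 glycolysis genes, the route that makes ATP without the chain, it was -0.09, but single genes ran from -1.82 to 1.51. In 5 of the 17 tested (29.4%) knockout replicate 2 was at least 0.5 below every other array, against 15.1% of the genes tested. In that list 0 genes passed and the median difference between the groups was -0.08. Aldoa, the glycolytic aldolase, read 12.12, 12.31 and 11.96 in knockouts, against 11.72 and 11.96 in controls. Pfkm, a phosphofructokinase, was lower in each knockout than in both controls, at 9.52, 8.49 and 9.50 in knockouts, against 9.65 and 9.72 in controls. Neither passed the test (limma adjusted p = 1).

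**Figure D4:**
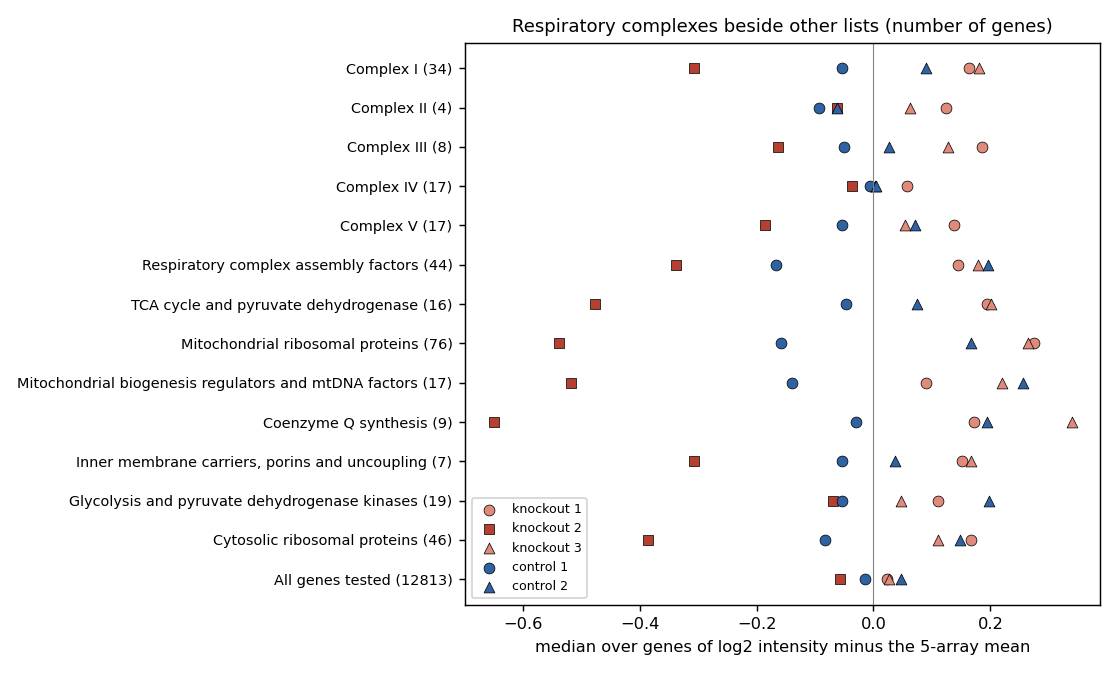
Median over the genes of each complex or list of log2 intensity minus the gene's mean over the 5 arrays (horizontal axis); symbols are arrays, 3 knockout (red) and 2 control (blue), and the number of genes stands in brackets. Knockout replicate 2, the dark square, lies leftmost in every row but complex II and is nearest to the others in complexes II and IV, glycolysis and all genes tested.

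Without knockout replicate 2, both remaining knockouts lay above both controls in 42 of 76 mitochondrial ribosomal proteins, 15 of 43 cytosolic ribosomal proteins tested, 8 of 16 TCA cycle genes and 10 of 42 assembly factors tested. In glycolysis this held for 4 of 17 genes tested, and 6 were below both controls. These counts stand beside the same background of 13.9% and 13.5% of the genes tested. The acyl carrier protein Ndufab1, a complex I subunit outside the name rule, read 11.09, 10.16 and 11.07 in knockouts, against 10.65 and 11.03 in controls, with the low replicate 2 seen in many complex I members. Cytochrome c (Cycs), which carries electrons from complex III to complex IV, read 13.42, 13.01 and 13.39 in knockouts, against 13.18 and 13.15 in controls. Its partner in complex III, cytochrome c1 (Cyc1), read 12.86, 12.33 and 12.71 in knockouts, against 12.75 and 12.88 in controls.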

How the data were processed

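RNA of sorted LT-HSCs was labelled after 2 rounds of in vitro transcription, per the labels' protocols, and hybridised to 5 Affymetrix arrays. The deposited values are log2 intensities. Per the submitters' processing notes, the authors used Affymetrix Expression Console and RMA (versions not given in the sources used). RMA forces the arrays to 1 distribution, so shifts shared by most transcripts are removed, and 2 rounds of amplification favour 3′ ends. Precision is limited by there being few arrays.

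Of 45101 rows, 64 control probe sets were left out, then the 40% of probe sets with the lowest mean (under 5.77). Group differences were fitted with lmFit and eBayes of limma 3.58.1 (R 4.3.3), two-sided, with Benjamini-Hochberg adjustment over 27022 probe sets and a threshold of 0.05. SE is the moderated standard error. The fit was tested on simulated data. Gene names came from the platform annotation. Of the probe sets, 34945 had 1 symbol, 932 had several and 9160 had none. Respiratory chain probe sets with several genes (9) were not used. Motifs were searched in RefSeq promoters with Python 3.11.15, and figures drawn with matplotlib 3.10.9.

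The members, lists, tests and alternatives were chosen with earlier results of these data known. Members named in the text are those with the smallest p in each complex, the highest and lowest differences, tissue isoforms, all of complex II and those whose probe sets disagree. Members low in knockout replicate 2 and the subdivisions of complexes were added after their values were seen, as were members whose groups were apart. Alternatives were filters, priors, array weights, cyclic loess, median centring, other probe sets for a gene, each array left out in turn and a replicate block. Whether arrays with the same replicate number were paired is not known here. Deviations of same-numbered arrays correlated at -0.48 and -0.55. Because 2 controls deviate from their mean in mirror image, the crossed pairs gave 0.48 and 0.55, and these values cannot settle the pairing.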

Additional observations from a re-analysis of the deposited data

How the results depend on the processing

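Limma called 0 members and 0 probe sets under every alternative run. The number of members whose groups were apart, 4 in the main comparison, was 10 with cyclic loess, 1 when a gap of at least 0.1 was required, and 7 to 34 when 1 array was left out, which itself makes separation more common. The share over all genes was taken only for the main comparison and for leaving out knockout replicate 2. The counts under the other alternatives therefore have no background beside them and say nothing particular to the members. Leaving out 1 array gave median differences of -0.06 to 0.10 for all members, -0.12 to 0.17 for complex I, 0.03 to 0.13 for complex II, -0.01 to 0.22 for complex III, -0.034 to 0.052 for complex IV and -0.10 to 0.08 for complex V. Array weights moved the median to 0.12 for all members (main -0.01), 0.13 for complex I (main -0.04), 0.16 for complex II, 0.21 for complex III, 0.049 for complex IV and 0.14 for complex V (main -0.03). Complex IV was also 0.037 with cyclic loess, 0.041 with the mean of all probe sets of a gene and 0.028 with probe sets ending in neither _x_at nor _s_at. The cause of these shifts was not tested. A replicate block on replicates 1 and 2, which drops knockout replicate 3, gave medians of -0.06 for all members, -0.12 for complex I, 0.08 for complex II, 0.04 for complex III, 0.01 for complex IV and -0.06 for complex V. With 5 arrays, the median half-width of a member's interval was 0.53 log2 units, so differences of the size seen here could not be resolved.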

Other observations

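Among the 48 members with several probe sets, the highest and lowest differences of a gene's probe sets lay a median of 0.16 log2 units apart. This range covers all probe sets of a gene, also those below the intensity filter. The median absolute difference of the members (0.08) is taken from the brightest probe set alone, so the values are not like measures. Opposite signs at least 0.5 apart occurred in 2 of the 48 members, Ndufs4 and Ndufa12. The second probe set of the muscle isoform Cox6a2, below the intensity filter, differed by 1.03, with 5.46, 6.81 and 5.18 in knockouts, against 4.87 and 4.70 in controls, and was highest in knockout replicate 2 like the brighter one.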
